A study of Bos taurus with 21 samples.

Results

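The myosin light chains were followed through 8 genes, *MYL1*, *MYL2*, *MYL3*, *MYL4*, *MYL6*, *MYL6B*, *MYL9* and *MYLPF*, in muscle RNA of bovine foetuses. A probe belonged to the set when the transcript it was designed on maps to one of these genes in the cattle annotation, which lists *MYLPF* under the newer symbol *MYL11*. This gave 18 probes of the 43653 non-control probes of the array and 8 genes of the 12538 that could be named. All 18 probes were well above background on all 21 arrays and passed the filter on low values, none lacked a value, and none was saturated.

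Muscle was taken at 110, 180, 210 and 260 days post conception (dpc) from Blonde d'Aquitaine (BA) and Charolais (CH) foetuses, both French beef breeds, and RNA of each foetus was put on an array of its own. In order of stage the arrays numbered 3, 2, 3 and 2 for BA, and 2, 3, 3 and 3 for CH. All were bred by artificial insemination of cows of their own breed, with 2 sires in each, and none carried a transgene or received a treatment. The BA foetuses of 180 dpc came from 1 sire, as did those of 260 dpc and the CH foetuses of 210 dpc. Stage is therefore in part mixed with sire. No sire served both breeds, so a difference between breeds cannot be told apart from a difference between their sires. Males made up 3 of the 10 BA and 5 of the 11 CH foetuses. In order of stage they numbered 2, 0, 1 and 0 in BA and 0, 1, 2 and 2 in CH, so sex was not balanced over stage and breed. The study states that the BA foetuses were not genotyped for the *MSTN* mutation found in part of the breed, so BA stands for a breed and not for a myostatin genotype. The sample labels name the muscle *Longissimus thoracis*, whereas the methods of the study name *m. Semitendinosus*.

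Each myosin head is held by a heavy chain whose lever arm carries an essential and a regulatory light chain. The essential chains here are *MYL1* (fast fibres), *MYL3* (slow fibres and ventricle), *MYL4* (embryonic muscle and atrium), *MYL6* (non-muscle and smooth muscle) and *MYL6B* (slow skeletal and non-muscle), and the regulatory chains are *MYLPF* (fast fibres), *MYL2* (slow fibres and ventricle) and *MYL9* (smooth and non-muscle). In mammalian muscle the embryonic chain is made early and is lost from skeletal muscle around birth, while fast and slow fibres take up their adult chains.

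Every level is a log2 intensity of 1 probe, less the 75th percentile of its array, with a constant of 2.69 added, so that 0 is close to the median probe of an array. This unit is called normalized log2 intensity, and a difference of 1 is a doubling. Levels were compared between arrays and not between genes. Differences were tested with limma over all 21 arrays and 20132 probes, and passing means an adjusted p (Benjamini-Hochberg) under 0.05. A group held 2 or 3 arrays, which limits the precision, and the p-values measure the spread between single foetuses, some of which share a sire. The 75th percentile of the arrays lay between 525 and 1174 intensity units (median 706), and 29027 to 34507 probes per array were well above background. Of the 7 skeletal muscle markers, 6 had a probe, and all 6 were well above background on every array. Among the heart markers with a probe, the hormones *NPPA* and *NPPB* were well above background on 0 of 21 arrays. The other heart markers with a probe, *TNNI3* and *MYBPC3*, were well above background on all 21. In whole muscle, fewer cells of a type and less RNA per cell cannot be told apart.

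From 110 to 260 dpc the embryonic chain fell, and the fast chains, the slow regulatory chain and *MYL6B* rose. The slow essential chain *MYL3* and the chains of non-muscle and smooth muscle cells did not pass. The *MYL1* probe A_73_P042606 did not pass in BA, and the rise of the brightest *MYL1*, *MYLPF* and *MYL2* probes depended on the scaling, as given below. Whether the brightest *MYL6* probe passed as lower at 260 dpc depended on it as well. In BA, 10 of the 18 probes passed, 8 higher and 2 lower at 260 dpc, against 52.4% of all tested probes, 27.6% higher and 24.8% lower. In CH, 11 passed, 9 higher and 2 lower, against 52.2% of all tested probes, 27.5% higher and 24.7% lower. The median difference of the 18 probes was 0.45 in BA and 0.48 in CH, and that of all tested probes was 0.03 in both breeds. A change over this interval was therefore common on the array, and the shares of the light chain probes that passed in either direction lay near the background. The light chain probes that passed were mostly higher at 260 dpc, whereas those of the whole array were split nearly evenly. Probes of the same gene are counted separately here.

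**Figure D1:**
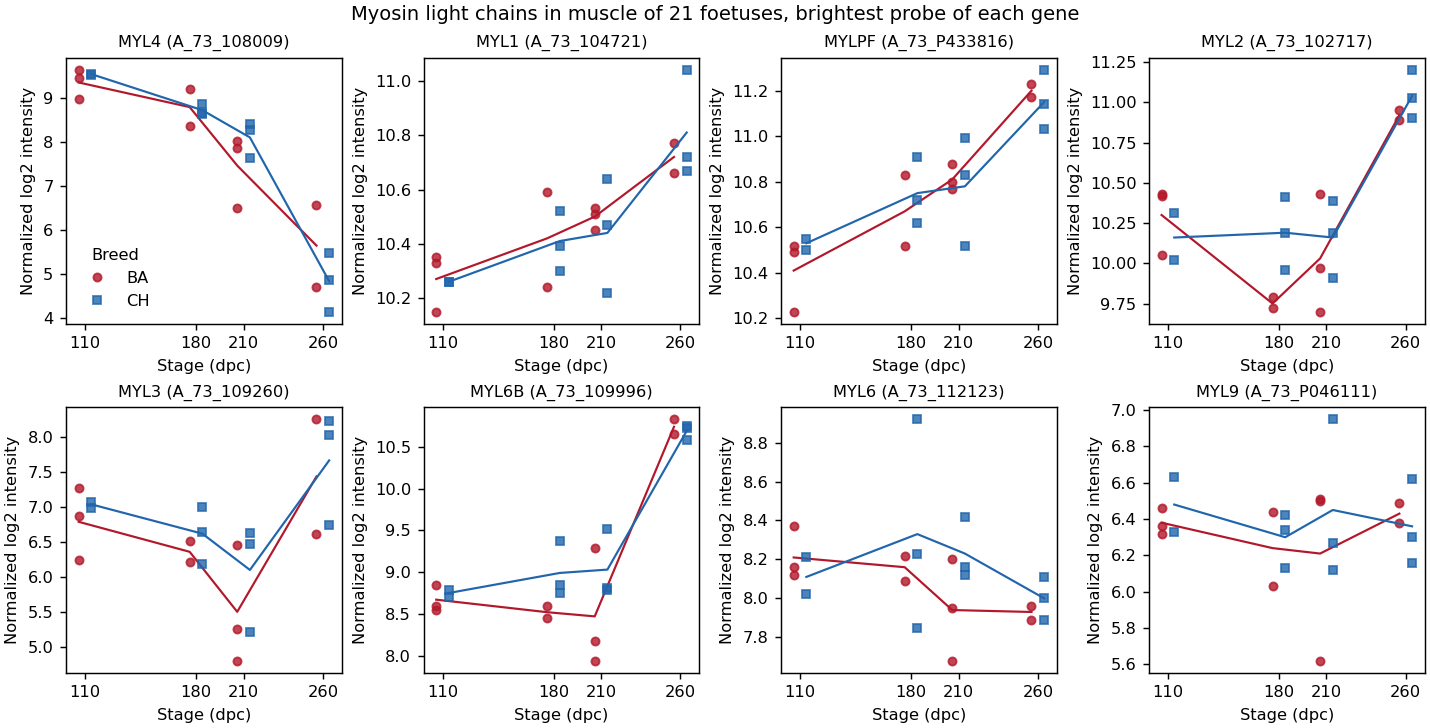
Normalized log2 intensity (y axis, a separate scale for each gene) against stage in dpc (x axis) for the brightest probe of each of the 8 genes. Each circle (BA) or square (CH) is 1 foetus, and the lines join the group means. *MYL4* descends at every step, *MYL6B* and *MYL2* rise after 210 dpc, and *MYL3* is lowest at 210 dpc. With this scaling *MYL6* and *MYL9* change little.

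*MYL4*, the embryonic essential chain, had the widest range of the set. On its brighter probe, A_73_108009, the BA foetuses read 8.98, 9.63 and 9.45 at 110 dpc, 8.37 and 9.20 at 180 dpc, 7.85, 8.03 and 6.49 at 210 dpc, and 6.56 and 4.71 at 260 dpc. The CH foetuses read 9.53 and 9.55 at 110 dpc, 8.85, 8.64 and 8.66 at 180 dpc, 7.63, 8.28 and 8.40 at 210 dpc, and 4.86, 5.48 and 4.14 at 260 dpc. In CH no stage overlapped the next, while in BA the foetuses at 110 and 180 dpc overlapped, as did those at 210 and 260 dpc.

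The fall of *MYL4* was largest in the last step. The steps span unequal numbers of days, and they were not tested against each other. As a mean of the breeds, the difference was −0.70 ± 0.36 (SE) from 110 to 180 dpc and −0.97 ± 0.34 from 180 to 210 dpc, neither of which passed in limma (adjusted p = 0.174 and 0.0805). From 210 to 260 dpc it was −2.55 ± 0.34, which passed (adjusted p = 1.46e-05). In this last step *MYL4* fell 3.53-fold in BA (difference −1.82 ± 0.50, adjusted p = 0.0164 in limma) and 9.68-fold in CH (difference −3.28 ± 0.45, adjusted p = 4.88e-05), where 21.1% and 36.2% of all tested probes passed. The BA call was lost without BA replicate 1 or 2 at 210 dpc (−1.62 and −1.53, adjusted p = 0.0568 and 0.0656) and without BA replicate 2 at 260 dpc (−0.89, 1.86-fold, adjusted p = 0.369), and without BA replicate 1 at 260 dpc the fall was 6.69-fold. In CH it ran from 7.64-fold to 12.1-fold with 1 foetus left out and passed each time. Between 110 and 260 dpc *MYL4* differed by −3.71 ± 0.50 in BA (adjusted p = 9.77e-06 in limma), or by −4.64 and −2.79 without replicate 1 and 2 at 260 dpc, and by −4.71 ± 0.50 in CH (adjusted p = 6.95e-07). The breeds' difference in the step from 210 to 260 dpc was 1.46 ± 0.67 and did not pass (adjusted p = 0.999 in limma), nor did any tested probe (0%). Of the 5 foetuses at 260 dpc, BA replicate 1 had the highest level. On the second probe, A_73_P128626, the foetuses followed the same order of stages, and the 2 probes had a Pearson correlation of 1.00 over the 21 arrays. Within the second of the 3 scan days, which held both ends, the brighter probe differed by −2.74 in BA (1 foetus against 2) and by −4.72 in CH (2 against 1).

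The fast regulatory chain *MYLPF* rose between 110 and 260 dpc in both breeds. Its brighter probe, A_73_P433816, read 10.23, 10.52 and 10.49 in BA at 110 dpc and 11.17 and 11.23 at 260 dpc. In CH it read 10.55 and 10.50 at 110 dpc and 11.03, 11.29 and 11.14 at 260 dpc. No foetus at 260 dpc was as low as any at 110 dpc in either breed. The difference was 0.79 ± 0.14 (SE) in BA (adjusted p = 0.000215 in limma) and 0.63 ± 0.14 in CH (adjusted p = 0.00151).

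The dimmer *MYLPF* probe, A_73_P034271, showed a larger and more stepwise rise. In BA it read 9.22, 9.40 and 9.31 at 110 dpc, 9.58 and 10.30 at 180 dpc, 10.63, 10.34 and 10.67 at 210 dpc, and 11.08 and 11.10 at 260 dpc. In CH it read 9.57 and 9.56, then 10.30, 10.29 and 10.06, then 10.11, 10.69 and 10.52, and last 10.89, 11.28 and 11.12. In BA no stage overlapped the next, and in CH only those of 180 and 210 dpc overlapped. Between 110 and 260 dpc this probe differed by 1.78 ± 0.19 in BA (adjusted p = 8.56e-07 in limma) and by 1.53 ± 0.19 in CH (adjusted p = 4.55e-06).

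*MYL1*, the essential chain of fast fibres, gives a long and a short protein from alternative starts, and which of them each of its 3 probes reads was not tested. The probes did not move alike, with pairwise Pearson correlations between 0.66 and 0.88 over the 21 arrays. The brightest, A_73_104721, read 10.15, 10.35 and 10.33 in BA at 110 dpc and 10.66 and 10.77 at 260 dpc, a difference of 0.44 ± 0.14 (SE, adjusted p = 0.0146 in limma). In CH it read 10.26 in both foetuses at 110 dpc and 10.67, 11.04 and 10.72 at 260 dpc, a difference of 0.55 ± 0.14 (adjusted p = 0.00372). The BA call was lost without BA replicate 1 at 110 dpc (0.38, adjusted p = 0.0508) and without BA replicate 2 at 260 dpc (0.39, adjusted p = 0.111). A_73_P042606 differed by 0.31 ± 0.15 in BA, which did not pass (adjusted p = 0.0995 in limma), and by 0.40 ± 0.15 in CH (adjusted p = 0.0327), a call lost without CH replicate 1 or 2 at 110 dpc (adjusted p = 0.124 and 0.102) or CH replicate 2 at 260 dpc (adjusted p = 0.139). That call was also lost with no filter (adjusted p = 0.0688), with sex as a covariate (adjusted p = 0.0737) and in the authors' table (0.04, adjusted p = 0.930), and its sign turned with quantile normalization (−0.06).

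The third *MYL1* probe, A_73_P253146, rose at every step as a mean of the breeds. In BA it read 9.11, 9.02 and 8.81 at 110 dpc, 9.12 and 9.51 at 180 dpc, 10.21, 10.02 and 10.47 at 210 dpc, and 10.62 and 10.71 at 260 dpc. In CH it read 9.08 and 8.69, then 9.87, 9.80 and 9.78, then 9.88, 10.05 and 10.04, and last 10.51, 10.97 and 10.67. No stage overlapped the next in either breed. Within a breed, the steps from 110 to 180 and from 210 to 260 dpc in BA (0.34 and 0.43, adjusted p = 0.187 and 0.0739 in limma) and from 180 to 210 dpc in CH (0.17, adjusted p = 0.642) did not pass. Between 110 and 260 dpc it differed by 1.69 ± 0.17 in BA (adjusted p = 2.67e-07 in limma) and by 1.83 ± 0.17 in CH (adjusted p = 9.91e-08).

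Before 210 dpc only 1 of the 3 *MYL1* probes and 1 of the 2 *MYLPF* probes passed, and neither was the brightest of its gene. In each step the share of light chain probes that passed was below that of all tested probes. The *MYL4* probes fell from 180 to 210 dpc without passing (−0.97 and −1.04, adjusted p = 0.0805 and 0.0717 in limma). From 110 to 180 dpc, as a mean of the breeds, 2 of the 18 probes passed against 24% of all tested probes, and both were higher at 180 dpc. They were the third *MYL1* probe and the dimmer *MYLPF* probe, each with a difference of 0.64. From 180 to 210 dpc 1 probe passed against 9.68% of all tested probes, the third *MYL1* probe, with a difference of 0.55 ± 0.11 (SE, adjusted p = 0.00527 in limma). The median difference of the 18 probes in these steps was −0.07 and 0.03, and that of all tested probes −0.02 and 0.01.

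The rise of the brightest *MYL1*, *MYLPF* and *MYL2* probes depended on how arrays were scaled. The 75th percentile of the arrays itself was lower at 260 than at 110 dpc, by a log2 difference of −0.41 in BA and −0.37 in CH. On the authors' table, which is not scaled between arrays, the median difference of all probes was −0.39 in BA and −0.34 in CH, and the brightest *MYL1* probe then differed by 0.03 in BA and 0.18 in CH, the brightest *MYLPF* probe by 0.37 and 0.26, and the brightest *MYL2* probe by 0.21 and 0.51, none of which passed. With quantile normalization the brightest *MYL1* probe turned to −0.07 in BA and stood at 0.04 in CH, while *MYLPF* stood at 0.20 and 0.11 and *MYL2* at 0.14 and 0.36. Of these only *MYLPF* in BA passed (adjusted p = 0.0440 in limma). In each breed 7 probes of 5 genes passed in the same direction under all 4 scalings tried. They were both *MYL4* probes, the third *MYL1* probe, the dimmer *MYLPF* probe, the 2 dimmer *MYL2* probes and the *MYL6B* probe.

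**Figure D2:**
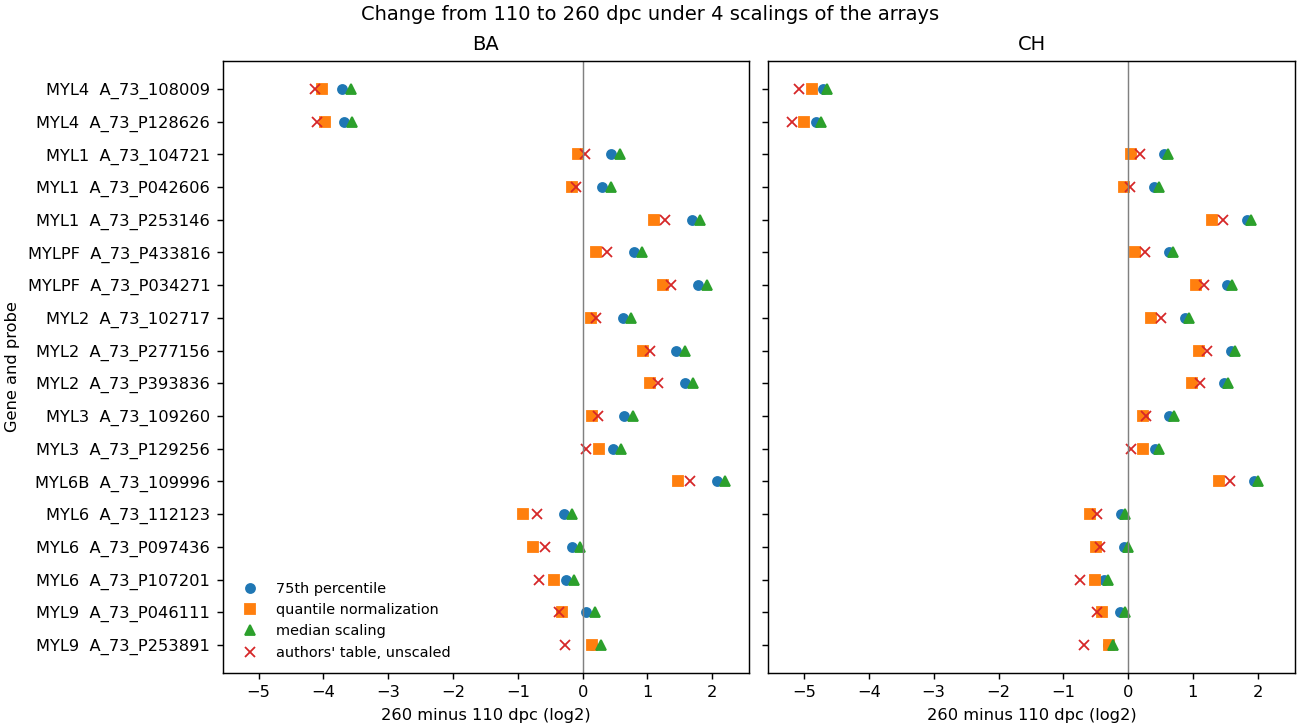
Log2 difference between 260 and 110 dpc (x axis) for each of the 18 probes (y axis) in BA (left) and CH (right) under 4 scalings of the arrays, namely the 75th percentile, quantile normalization, the median, and the authors' table with no scaling. The brightest *MYL1*, *MYLPF* and *MYL2* probes lie nearer to 0 under quantile normalization and in the unscaled table than with the 75th percentile, whereas *MYL4* and *MYL6B* stay far from 0 under all 4.

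The slow regulatory chain *MYL2* rose between 210 and 260 dpc. Its brightest probe, A_73_102717, read 10.05, 10.43 and 10.42 in BA at 110 dpc, 9.72 and 9.79 at 180 dpc, 10.43, 9.70 and 9.97 at 210 dpc, and 10.89 and 10.95 at 260 dpc. In CH it read 10.31 and 10.02, then 10.41, 10.19 and 9.96, then 10.19, 9.91 and 10.39, and last 10.90, 11.20 and 11.03. All 5 foetuses at 260 dpc were above all others, and the 3 earlier stages overlapped in CH. From 210 to 260 dpc the difference, as a mean of the breeds, was 0.89 ± 0.13 (SE, adjusted p = 5.34e-05 in limma) on this probe, 1.69 ± 0.20 (adjusted p = 5.43e-06) on A_73_P277156 and 1.66 ± 0.20 (adjusted p = 4.85e-06) on A_73_P393836. On the authors' unscaled table the brightest probe's difference in this step was 0.47 and did not pass (adjusted p = 0.0584 in limma).

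Between 110 and 260 dpc the brightest *MYL2* probe differed by 0.62 ± 0.20 in BA (adjusted p = 0.0149 in limma) and by 0.88 ± 0.20 in CH (adjusted p = 0.00136). The BA call was lost with the slide as a block (0.58, adjusted p = 0.127) and without BA replicate 1 at 110 dpc, BA replicate 1 at 260 dpc or BA replicate 2 at 260 dpc (adjusted p = 0.0615, 0.0525 and 0.0851). The dimmer probes of the gene rose by 1.45 and 1.58 in BA and by 1.59 and 1.47 in CH, with adjusted p between 0.000238 and 0.000669 in limma. The 3 probes had pairwise Pearson correlations between 0.95 and 0.99.

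*MYL6B*, the essential chain shared by slow skeletal and non-muscle cells, had 1 probe, A_73_109996. In BA it read 8.60, 8.85 and 8.55 at 110 dpc, 8.60 and 8.45 at 180 dpc, 9.29, 7.94 and 8.18 at 210 dpc, and 10.83 and 10.65 at 260 dpc. In CH it read 8.79 and 8.70, then 9.37, 8.84 and 8.75, then 8.81, 8.78 and 9.52, and last 10.58, 10.73 and 10.75. All 5 foetuses at 260 dpc lay more than 1 log2 unit above every other foetus. The difference between 110 and 260 dpc was 2.07 ± 0.30 (SE) in BA (4.19-fold, adjusted p = 2.17e-05 in limma) and 1.94 ± 0.30 in CH (3.84-fold, adjusted p = 4.23e-05).

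All of this rise came in the last step. The difference of *MYL6B* was 0.05 ± 0.21 (SE) from 110 to 180 dpc, 0.00 ± 0.20 from 180 to 210 dpc and 1.96 ± 0.20 from 210 to 260 dpc, where it passed (adjusted p = 1.24e-06 in limma). Within the second scan day the foetuses of 260 and 110 dpc differed by 2.10 in BA and 1.95 in CH, and within the first day by 1.88 in CH, with 1 or 2 foetuses on each side. *MYL6B* and *MYL6* are neighbours on chromosome 5 in the annotation, and the *MYL6* probes did not share this rise.

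*MYL3*, the slow essential chain, had its lowest mean at 210 dpc in both breeds and a wide spread between foetuses. On A_73_109260 the BA foetuses read 6.24, 7.27 and 6.87 at 110 dpc, 6.51 and 6.22 at 180 dpc, 6.46, 4.80 and 5.25 at 210 dpc, and 8.26 and 6.61 at 260 dpc. The CH foetuses read 7.08 and 6.99, then 7.0, 6.65 and 6.19, then 6.63, 6.47 and 5.21, and last 8.24, 6.74 and 8.04. The foetuses of 210 and 260 dpc did not overlap within either breed, whereas those of 110 and 260 dpc did. From 210 to 260 dpc *MYL3* rose by 1.75 ± 0.38 (SE) as a mean of the breeds (adjusted p = 0.00127 in limma), by 1.93 ± 0.57 in BA (adjusted p = 0.0220) and by 1.57 ± 0.51 in CH (adjusted p = 0.0225). With 1 foetus left out the BA difference ran from 1.11 to 2.76 and its call was lost without replicate 2 or 3 at 210 dpc or replicate 1 at 260 dpc (adjusted p = 0.0870, 0.0639 and 0.276). The CH difference ran from 1.12 to 2.04 and its call was lost without replicate 3 at 210 dpc or replicate 1 or 3 at 260 dpc (adjusted p = 0.117, 0.0867 and 0.0824).

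Between 110 and 260 dpc *MYL3* did not pass. The difference was 0.65 in BA, with a 95% interval from −0.55 to 1.84 (adjusted p = 0.356 in limma), and 0.64 in CH, from −0.56 to 1.83 (adjusted p = 0.363). At 260 dpc the second foetus of each breed was the low one, with 6.61 in BA and 6.74 in CH against 8.04 to 8.26 in the other 3. Without BA replicate 1 at 260 dpc the BA difference turned to −0.18. The second probe, A_73_P129256, had a Pearson correlation of 0.98 with the first over 21 arrays and rose by 1.45 ± 0.29 in the last step (adjusted p = 0.000591 in limma).

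Among the 3 BA foetuses at 210 dpc, replicate 1 was the highest on the slow chains. It read 10.43 on the brightest *MYL2* probe, 9.29 on *MYL6B* and 6.46 on *MYL3*. In CH at the same stage, 1 foetus was above it on *MYL6B* and 2 on *MYL3*. The BA foetus was the lowest of its group on the brightest probes of *MYL6* (7.68) and *MYL9* (5.62).

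Over the last step, from 210 to 260 dpc, 13 of the 18 probes passed as a mean of the breeds, 11 higher and 2 lower at 260 dpc, against 44.7% of all tested probes, 24.8% higher and 19.9% lower. They covered 6 genes, namely *MYL4* lower and *MYL1*, *MYL2*, *MYL3*, *MYL6B* and *MYLPF* higher. The median difference of the 18 probes was 0.34 and that of all tested probes 0.03. For the fast chains the step was small, with 0.29, 0.31 and 0.58 on the *MYL1* probes and 0.38 and 0.60 on the *MYLPF* probes, and none of these 5 passed as higher with quantile normalization or in the authors' unscaled table. With quantile normalization the brightest *MYL1* probe passed in the other direction (−0.19, adjusted p = 0.0156 in limma). Its call was also lost without BA replicate 2 at 260 dpc, CH replicate 1 at 210 dpc or CH replicate 2 at 260 dpc (adjusted p = 0.0837, 0.0526 and 0.0548). The call of A_73_P042606 was lost without any of 5 foetuses, BA replicate 1 at 210 dpc, BA replicates 1 and 2 at 260 dpc, CH replicate 1 at 210 dpc and CH replicate 2 at 260 dpc, with adjusted p between 0.0517 and 0.0653.

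**Figure D3:**
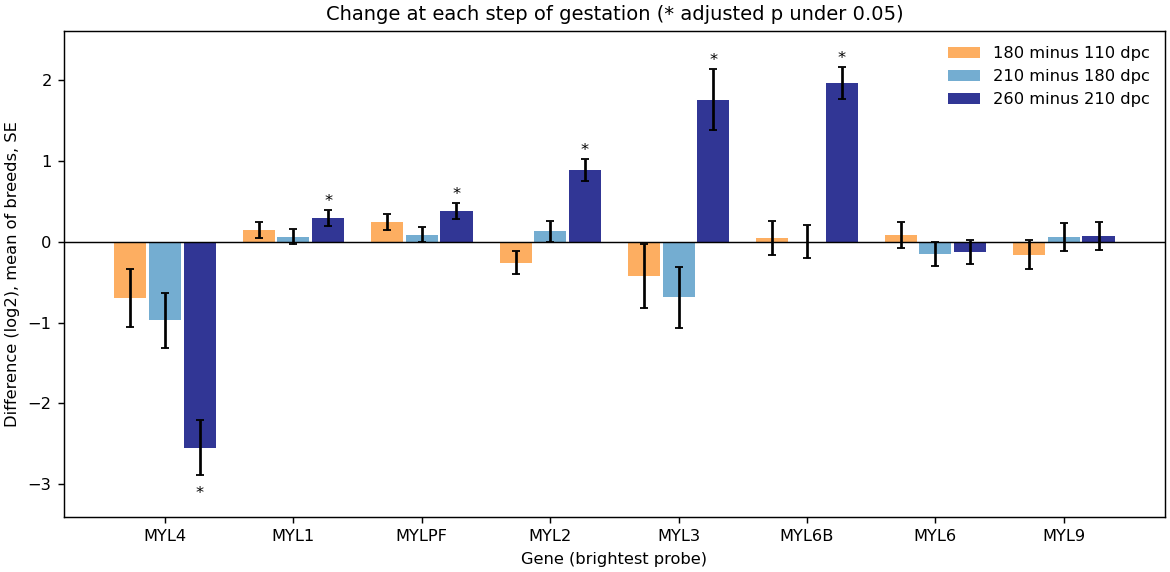
Log2 difference (y axis, mean of the breeds, with SE) of the brightest probe of each gene (x axis) for 180 minus 110 dpc, 210 minus 180 dpc and 260 minus 210 dpc. An asterisk marks an adjusted p under 0.05 in limma. For these probes all asterisks stand on the last step, with *MYL4* at −2.55, *MYL6B* at 1.96 and *MYL3* at 1.75.

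*MYL6*, the essential chain of non-muscle and smooth muscle cells, passed in no comparison on any of its 3 probes. On A_73_112123 the BA foetuses read 8.12, 8.16 and 8.37 at 110 dpc and 7.89 and 7.96 at 260 dpc. The CH foetuses read 8.21 and 8.02 at 110 dpc and 8.11, 8.0 and 7.89 at 260 dpc. The stages did not overlap in BA and overlapped in CH. The difference was −0.29 in BA, with a 95% interval from −0.76 to 0.18 (adjusted p = 0.289 in limma), and −0.11 in CH, from −0.58 to 0.36 (adjusted p = 0.698). With quantile normalization it was −0.91 and −0.59 and passed in both breeds (adjusted p = 0.00285 and 0.0387 in limma). CH replicate 1 at 180 dpc read 8.92, the highest of all foetuses on this probe, and was also the highest on the other 2 *MYL6* probes.

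*MYL9*, the regulatory chain of smooth and non-muscle cells, had similar levels at all stages. On A_73_P046111 the BA foetuses read 6.36, 6.46 and 6.32 at 110 dpc and 6.49 and 6.38 at 260 dpc, and the CH foetuses 6.63 and 6.33 at 110 dpc and 6.16, 6.30 and 6.62 at 260 dpc. The stages overlapped in both breeds. The difference was 0.05 in BA, with a 95% interval from −0.49 to 0.60, and −0.12 in CH, from −0.66 to 0.42 (adjusted p = 0.877 and 0.725 in limma). In BA its sign turned with quantile normalization (−0.32) and in the authors' unscaled table (−0.36).

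**Figure D4:**
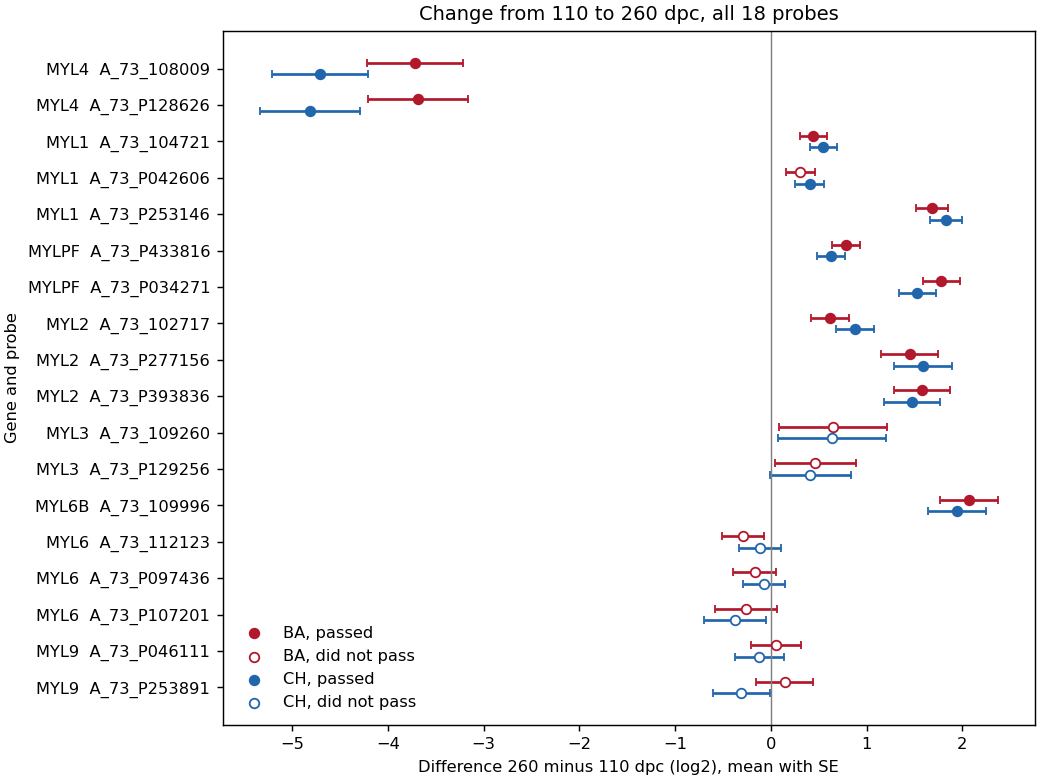
Log2 difference between 260 and 110 dpc (x axis, with SE) for all 18 probes (y axis) in BA (red) and CH (blue). Filled points passed at an adjusted p under 0.05 in limma and open points did not. Both *MYL4* probes lie far below 0, the *MYL1*, *MYLPF*, *MYL2* and *MYL6B* probes lie above 0, and the probes of a gene differ in size for *MYL1*, *MYLPF* and *MYL2*.

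The breeds were compared at each stage to ask whether the light chains of BA and CH differed along gestation. None of the 18 probes passed at 110, 180, 210 or 260 dpc in limma, against 0.273%, 0.00993%, 0% and 0% of all tested probes. At an unadjusted p under 0.05 there were 0, 2, 0 and 0 probes at these stages. The 2 at 180 dpc were the third *MYL1* probe, with a difference of −0.50 (BA minus CH, adjusted p = 0.663 in limma), and the brightest *MYL2* probe, with −0.43 (adjusted p = 0.797). At that stage the 2 BA foetuses read below the 3 CH foetuses on both probes, and also on the other *MYL2* probes and on *MYL6B*. On the *MYL9* probe A_73_P253891 they read above them. With 2 against 3 foetuses such a separation carries little weight, and its share over all tested probes was not counted.

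On average over the stages, none of the 18 probes passed in limma against 0.358% of all tested probes, and 2 had an unadjusted p under 0.05. These were the 2 dimmer *MYL2* probes, each lower in BA by a difference of −0.32, with adjusted p of 0.389 and 0.365. The median breed difference of the 18 probes was −0.07 and that of all tested probes was −0.02. On the brightest probes the difference of *MYL2* was −0.14 with a 95% interval from −0.34 to 0.07, that of *MYL3* −0.33 from −0.91 to 0.25, and that of *MYL6B* −0.26 from −0.57 to 0.05. The fast chains had narrower intervals, from −0.15 to 0.14 for *MYL1* and from −0.18 to 0.12 for *MYLPF*, around differences of 0.00 and −0.03 whose signs turned under other settings. For *MYL4* the interval ran from −0.51 to 0.53, for *MYL6* from −0.34 to 0.12 and for *MYL9* from −0.35 to 0.18.

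Exact two-sided permutation of the breeds within stages, with 20000 reassignments, passed for none of the 8 genes on their brightest probes. The lowest p was 0.0896 for *MYL6B* (0.624 after Benjamini-Hochberg adjustment over 8 tests). Its mean was 9.10 in BA and 9.36 in CH. *MYL3* had a lower mean in BA at all 4 stages, with differences from −0.60 to −0.24, but the breeds overlapped at each stage. None of these passed (lowest adjusted p = 0.885 in limma). At 260 dpc the difference was −1.63 within the first scan day and 0.87 within the second, with 1 or 2 foetuses on each side. The breeds' difference in the change from 110 to 260 dpc passed for none of the 18 probes in limma, against 0% of all tested probes, and no light chain probe had an unadjusted p under 0.05 there. For *MYL4* that difference of changes was 1.00 ± 0.71 (SE, adjusted p = 0.806 in limma).

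**Figure D5:**
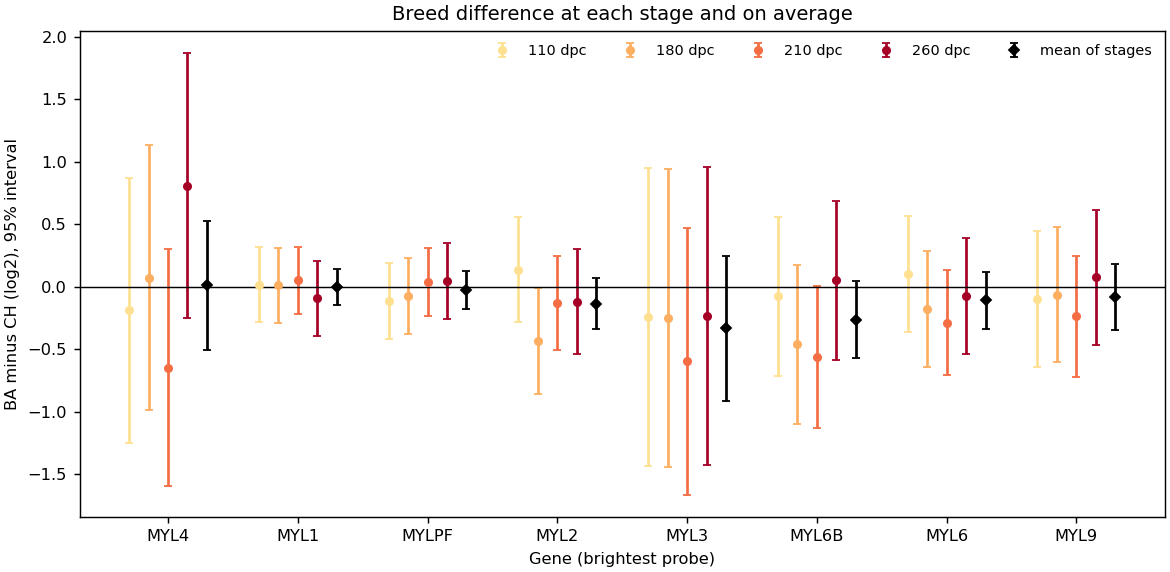
Log2 difference BA minus CH (y axis, with 95% interval from limma) of the brightest probe of each gene (x axis) at each stage (circles, pale to dark from 110 to 260 dpc) and as the mean of the stages (black diamonds). All 8 black intervals include 0, and the widest intervals at single stages belong to *MYL4* and *MYL3*.

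Other genes of the myosin were taken from lists of gene symbols, each gene by its brightest probe, and compared between 260 and 110 dpc as a mean of the breeds. In that comparison 64.1% of all 20132 tested probes passed in limma, 6708 higher and 6198 lower. Of 11 heavy chain genes, 8 had a probe, 5 were higher and 2 lower, with a median difference of 1.48. The adult fast chains *MYH2* and *MYH1* had the largest differences (3.53 ± 0.16 and 2.79 ± 0.11, SE), and near-identical heavy chain genes could share signal on these probes. The slow heavy chain *MYH7* rose by 1.78 ± 0.18, and the embryonic heavy chain *MYH3* fell by 0.83 ± 0.18 where *MYL4* fell by 4.21 ± 0.36.

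Of 14 genes of the kinases and the phosphatase that act on regulatory light chains, 6 had a probe, of which 3 were higher and 0 lower, with a median difference of 0.53. The largest were *MYLK*, the light chain kinase of smooth and non-muscle cells (0.93 ± 0.14, SE), and *PPP1CB*, the catalytic subunit of the myosin phosphatase (0.88 ± 0.09). Of 5 further light chain genes, 2 had a probe, the non-muscle regulatory chains *MYL12B* (−1.63 ± 0.10) and *MYL12A* (0.38 ± 0.13). Both passed in limma with opposite signs, and these 2 genes are near-identical copies whose probes could share signal.

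Markers of cell types were counted in the same mean-of-breeds comparison, in which 64.1% of all 20132 tested probes passed, 6708 higher and 6198 lower. Of 6 skeletal muscle markers 5 were higher, most of all *CKM* (3.11), and 1 lower, *MYOG* (−0.78), with a median of 1.65. Between 110 and 260 dpc, 4 of 5 fibroblast markers were lower (median difference −0.53). Within single breeds 2 were lower in BA and 3 in CH, against 24.8% and 24.7% of all tested probes. The mean level of the 5 ran from 7.06 to 7.93 in BA foetuses at 110 dpc and from 6.69 to 7.07 at 260 dpc, and in CH from 7.59 to 7.60 and from 6.47 to 7.15. Of 5 endothelial markers 3 were higher and 1 lower (median 0.43), of 5 leukocyte markers 2 were higher and 0 lower (median 0.19), and of the 3 adipocyte markers with a probe none passed (median 0.63). Of 6 smooth muscle markers 2 were higher, among them *MYH11* (2.73), and 2 lower, among them *ACTA2* (−1.63), with a median of −0.03. Of 5 red cell markers 4 were lower (median −2.37), and of 5 nerve and Schwann cell markers 3 were higher (median 1.02). Among these calls, the probes of *CD3E* (leukocyte) and *ALAS2* (red cell) did not pass the filter and were adjusted over all non-control probes. *CD3E* was well above background on 13 of 21 arrays. Of the 4 heart markers with a probe *TNNI3* was lower (−1.25) and *MYBPC3* higher (0.58). The part of these cells in the light chain values was not tested.

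The genes whose level followed each member most closely over the 21 arrays were listed by Pearson correlation, as a description, since the arrays share stages and scaling. *MYL1* was closest to *MYLPF* (0.955), and *MYLPF* to *DES*, the intermediate filament of muscle (0.987), and *TNNC2*, the fast troponin C (0.986). *MYL6B* was closest to the dimmest *MYL2* probe (0.981), *TNNC1*, the slow troponin C (0.971), *CD164L2* (0.970), *TNNT1*, the slow troponin T (0.968), and *MYH7* (0.957). *MYL2* was closest to *TPM3*, the slow tropomyosin (0.937), *TNNC1* and *MYL6B* (both 0.927). *MYL4* was closest to *C1QTNF3* (0.956), *PSRC1* and *PIMREG* (both 0.953), and had no sarcomere gene among the closest 5. *MYL3*, *MYL6* and *MYL9* had no gene as close, with highest correlations of 0.809, 0.715 and 0.684.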

How the data were processed

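Muscle RNA of 21 foetuses was measured on 1-colour 4x44K bovine arrays. Spot intensity values were made by the authors with Agilent Feature Extraction 10.7, per the labels, without background subtraction and without scaling across arrays. The series also has a log2 table by the authors, and 99.98% of the values deposited in it lay within 0.01 of the log2 processed intensity. Control spots and 258 outlier spot values were dropped, and replicate spots were averaged. Gene names came from the transcript accessions beside each probe, looked up in the RefSeq annotation ARS-UCD2.0. The probes were not designed on that assembly, so positions are not given, and no probe sequence is shown.

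From each log2 intensity the array's 75th percentile was subtracted. Probes with a mean above 0 in 7 or more of the 8 groups of breed and stage were tested. A listed gene whose probe failed this filter was adjusted over all 43653 non-control probes. Group means were fitted with limma 3.58.1 (R 4.3.3, version 1.17.8 of data.table, jsonlite 2.0.0), with 13 residual and 3.79 prior degrees of freedom. The fit was tested on simulated data. Breed means were also compared by exact permutation within stages. A gene is described by its brightest probe, with its other probes beside it. Lists name the 2 genes with the largest change, and likeness the 5 closest genes. *MYH3*, *MYH7* and the cell type markers given with values lie outside this rule and were named after their values were seen.

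Alternatives were normexp (offset 50), quantile and median scaling, the authors' values, no filter, a detection filter, sex as a covariate, slide, scan day, sire or replicate number as a block, other probes, and each array left out. A lone array in a group is then assumed to vary like the others. Sharing a replicate number did not make arrays alike, with a median correlation of group-centred values of 0.01 (lowest −0.26) over 66 such pairs and −0.01 over 126 others. Steps within a breed, also with each array left out, and differences within a scan day were chosen late, with the data in view. The members and lists were chosen with earlier results of these data known.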

Additional observations from a re-analysis of the deposited data

How the results depend on the processing

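The 2 or 3 arrays per group limit the precision, all 18 probes were well above background, and a two-sided exact permutation within 1 stage cannot give a p under 0.1. No light chain probe passed in a breed comparison, or in the breeds' difference in change, under any alternative. The number of light chain probes that passed moved by over 1.5 times in these comparisons. From 180 to 210 dpc it was 2 with normexp and with slide, scan day, sire or the replicate block, 4 with quantile normalization and 0 in the authors' table, against 1. From 110 to 180 dpc it was 4 with quantile normalization, against 2. In the authors' table it was 7 for 260 minus 110 dpc in CH, against 11, and 8 for 260 minus 210 dpc, against 13. With 1 array left out it ran from 8 to 10 for 260 minus 110 dpc in BA, from 10 to 11 in CH, from 2 to 2, from 1 to 3 and from 11 to 13 in the 3 steps, and stayed at 0 in the breed comparisons. The replicate block changed no other count by over 1.5 times.

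Signs turned in the following cases, and the cause was not tested. For 260 minus 110 dpc in BA, A_73_104721 (*MYL1*) turned to −0.074 with quantile normalization, A_73_P042606 (*MYL1*) to −0.156 with it and −0.108 in the authors' table, A_73_P046111 (*MYL9*) to −0.324 and −0.36, A_73_P253891 (*MYL9*) to −0.267 in that table and A_73_P129256 (*MYL3*) to −0.06 with the slide block. In CH, A_73_P042606 turned to −0.058 with quantile normalization, and with the slide block the *MYL6* probes turned to 0.112, 0.201 and 0.112 and A_73_P046111 to 0.131. For 260 minus 210 dpc, quantile normalization and the authors' table gave −0.189 and −0.118 for A_73_104721, −0.119 and −0.105 for A_73_P042606, −0.118 and −0.032 for A_73_P433816 (*MYLPF*) and −0.174 and −0.343 for A_73_P046111. The mean breed difference of *MYL1* turned to 0.008 with normexp, 0.045 with quantile normalization, 0.051 in the authors' table, 0.004 with sex, 0.064 with slide, 0.038 with scan day and 0.048 on A_73_P042606. That of *MYLPF* turned to 0.028, 0.043 and 0.019 in the authors' table and with slide and scan day. That of *MYL4* turned to −0.029 with median scaling, −0.007 with scan day, −0.022 with the replicate block and −0.044 on A_73_P128626, and that of *MYL9* to 0.091 on A_73_P253891.

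With 1 array left out, the 260 minus 110 dpc difference in BA ran from −0.178 to 1.47 for *MYL3*, from −0.202 to 1.134 for its probe A_73_P129256 and from −0.003 to 0.11 for *MYL9*. In CH that of *MYL9* ran from −0.273 to 0.034, and its 260 minus 210 dpc difference from −0.079 to 0.193. The mean breed difference ran from −0.047 to 0.041 for *MYL1*, from −0.221 to 0.242 for *MYL4* and from −0.065 to 0.012 for *MYLPF*. A_73_P042606 lost its CH call with no filter (0.40, adjusted p = 0.0688 in limma) and with sex as a covariate (0.37, adjusted p = 0.0737).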
